A study of Mus musculus with 2 samples.

Results

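The BMP signaling genes *Bmp2*, *Bmp4*, *Bmp6*, *Bmpr1a*, *Bmpr2*, *Grem1*, *Id1*, *Id2* and *Id3* are described here in cultured mouse aortic VSMCs. These 9 genes were chosen by name out of the 31053 genes of the files, as ligands, receptors, a secreted antagonist and nuclear targets of 1 pathway. Both libraries were made by 10x Genomics scRNA-seq from wild type mice and are biological replicates of 1 condition, primary VSMCs from the aorta after 5 days in full medium with serum. The study's methods state that several thoracic aortae were combined in a cell preparation and that the mice had a C57BL6/N background, so that a library stands for a pooled culture and not for 1 animal. No agent was added and no gene was deleted, and the contrasts below are between classes of cells within these cultures. In this method every captured mRNA molecule is given a cell barcode plus a random tag, the unique molecular identifier (UMI), and distinct UMIs are counted.

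BMPs are secreted ligands of the TGF-β superfamily. They bind complexes of type I receptors such as BMPR1A and type II receptors such as BMPR2, which phosphorylate Smad1, Smad5 and Smad9, and the *Id* genes are classic direct targets of these Smads. ID proteins hold E proteins in inactive dimers, and secreted antagonists such as gremlin 1 trap the ligands outside the cell. In the vessel wall, loss of BMPR2 function is a known cause of heritable pulmonary arterial hypertension, and BMPs act on both ECs and VSMCs.

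A barcode was kept as a cell when it held 3000 or more UMIs from 300 or more genes, with less than 20% of them mitochondrial. This left 4866 cells in replicate 1 and 6824 cells in replicate 2. The median depth was 22234.5 and 16310 UMIs per cell, respectively. ECs had at least 2 UMIs in each of 2 or more of *Pecam1*, *Cdh5*, *Cldn5* and *Gja4*. Of the other cells, those with at least 2 *Sox9* UMIs were called Sox9 cells, after the chondrocyte transcription factor. The rest were split by the contractile gene *Myh11* into Myh11-high cells (at least 5 UMIs), Myh11-low cells (at most 1 UMI) and intermediate cells. Replicate 1 and replicate 2 held 431 and 697 Myh11-high cells, 3241 and 3808 Myh11-low cells, 799 and 1859 Sox9 cells, and 102 and 141 ECs. Depth differed between the classes, with medians of 14629 and 10250 UMIs in ECs against 20819 and 14484 in Myh11-low cells, 25331 and 19895 in Myh11-high cells and 26139 and 20084 in Sox9 cells.

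ECs and Sox9 cells were checked with markers that their rule did not use. The 8 EC markers outside the rule (such as *Tie1*, *Kdr* and *Vwf*) summed to 2474 and 2636 CPM (UMIs of the gene per 1e+06 UMIs of the class) in ECs and to between 19.6 and 50.6 CPM in the 3 other classes. ECs also held contractile genes: the 7 markers of that list summed to 2823 and 1989 CPM in ECs, against 23808 and 25605 CPM in Myh11-high cells. The 7 chondrocyte markers other than *Sox9* summed to 51.0 and 73.5 CPM in Sox9 cells. They summed to 48.3 and 37.1 CPM in Myh11-low cells and to 105 and 20.8 CPM in Myh11-high cells. Myh11-high cells were thus highest in replicate 1 and Sox9 cells in replicate 2. Of these markers, 2 (*Chad* and *Matn1*) were at 0 in the Sox9 cells of both libraries. The class is therefore named for its 1 defining gene only. In ECs, 5 of 102 and 3 of 141 cells had more than 1 *Myh11* UMI. The 2 libraries shared 9 cell barcodes, where 4.89 would be expected if they were drawn independently. All levels below are CPM of summed UMIs, with n = 2 libraries, and an exact permutation test of 2 against 2 values could not reach a p below 0.333, so that tests come from edgeR fits across all genes. The labels call the libraries biological replicates, and p-values measure the spread between these 2 preparations only. Unless a block is named, the fits had no term for the library, though sums of a library come from 1 culture. Their spread was pooled over the classes fitted together and moderated across genes.

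Stretches before the RefSeq start are shown for *Bmp4*, *Grem1* and *Id2*, to show a ligand, the antagonist and a target, each with a searched motif outside the annotated exons. RefSeq promoters (GRCm38.p6, from 250 bases before to 50 after the start) were at hand for 7 of the 9 genes. Both strands were searched for GGCGCC, the GC-rich element that Smad1 and Smad5 are known to bind, and for CCGGAA, a core motif of ETS factors. The first was in 4 of the 7 promoters (*Bmpr1a*, *Bmpr2*, *Grem1* and *Id2*) and in 11.9% of all 32851 promoters of this length. The second was in 1 of the 7 (*Bmp4*) and in 14.9% of all. Of the 7 windows, only those of *Bmp4* and *Grem1* reach outside the gene as annotated in GENCODE M21. The *Id2* stretch lies inside the annotated gene, between its exons, and the *Bmpr1a* and *Bmpr2* windows also lie inside their genes. The stretches are chr14:46390670-46390919 for *Bmp4*, chr2:113758649-113758898 for *Grem1* and chr12:25096254-25096342 for *Id2*, all on the minus strand, written 5′ to 3′. Capitals mark the motif, which begins 95 bases before the start in *Bmp4* (there on the other strand), 78 bases before it in *Grem1* and 231 bases before it in *Id2*.
Bmp4: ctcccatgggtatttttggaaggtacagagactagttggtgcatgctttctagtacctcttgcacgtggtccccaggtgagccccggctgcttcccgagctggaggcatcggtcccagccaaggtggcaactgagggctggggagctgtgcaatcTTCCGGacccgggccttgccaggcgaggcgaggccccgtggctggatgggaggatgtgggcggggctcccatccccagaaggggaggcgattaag
Grem1: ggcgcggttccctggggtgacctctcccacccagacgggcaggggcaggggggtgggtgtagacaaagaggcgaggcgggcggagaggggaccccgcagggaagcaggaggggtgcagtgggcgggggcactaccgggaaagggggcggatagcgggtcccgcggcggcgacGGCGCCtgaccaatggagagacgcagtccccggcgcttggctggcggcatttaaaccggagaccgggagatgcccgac
Id2: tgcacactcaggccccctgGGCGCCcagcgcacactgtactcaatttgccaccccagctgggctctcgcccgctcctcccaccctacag
A match describes these letters only and says nothing of binding in these cells.

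Among the ligands, *Bmp6* was a gene of the ECs. It had 99.9 and 94.8 CPM in ECs of replicate 1 and replicate 2. In Myh11-high cells it had 0.505 and 1.30 CPM, in Myh11-low cells 0.496 and 0.428 CPM, and in Sox9 cells 1.27 and 0.732 CPM. Every EC value lay above every value of the other classes. Against the mean of the 3 other classes, the log2 fold change was 6.89 ± 0.27 (SE, n = 2 libraries), a 119-fold difference (edgeR quasi-likelihood test, adjusted p = 1.7e-05). It was 7.04 in replicate 1 alone and 6.86 in replicate 2 alone. At least 1 *Bmp6* UMI was present in 67.6% of ECs in replicate 1 (57.7 to 76.6%, exact 95% binomial interval) and in 60.3% in replicate 2 (51.7 to 68.4%). In the deeper Myh11-low cells the share was 1.02% and 0.657%. Free RNA alone would give 0.0945% and 0.129% of ECs a *Bmp6* UMI. Its profile was measured in barcodes with 1 to 100 UMIs, and its amount was estimated in cells other than ECs and applied to ECs. After thinning every cell to 3000 UMIs, the EC shares were 30.0% and 26.3%. These intervals cover counting error only.

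*Bmp4*, a ligand that endothelium and mesenchyme are both known to make, was found in all classes. ECs had 109 and 172 CPM, Sox9 cells 68.8 and 103 CPM, Myh11-high cells 62.7 and 93.6 CPM, and Myh11-low cells 55.0 and 84.1 CPM. Replicate 2 was higher than replicate 1 in each class, and the order of the 4 classes was the same in both libraries. The ranges of the 3 other classes overlapped one another, while the 2 EC values lay above all of them. The difference of ECs from the 3 other classes was 0.73 ± 0.26 (SE) on the log2 scale and did not pass (edgeR, adjusted p = 0.092), and it passed with the replicate as a block (0.72 ± 0.06, adjusted p = 0.00019). Single libraries gave 0.81 and 0.88. A *Bmp4* UMI was found in 64.7% and 61.7% of ECs, in 45.5% and 45.6% of Myh11-low cells, and in 55.4% and 65.4% of Myh11-high cells. After thinning to 3000 UMIs these shares were 27.0% and 32.9%, 12.6% and 17.7%, and 14.3% and 22.4%.

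*Bmp2*, the ligand best known for inducing bone, was near the limit of detection. It had 4.46 and 2.06 CPM in Myh11-high cells (53 and 30 UMIs), 1.17 and 2.65 CPM in Myh11-low cells, 1.27 and 1.32 CPM in Sox9 cells, and 2.04 and 1.14 CPM in ECs (4 and 2 UMIs). All neighbours in this order overlapped. Between Myh11-low and Myh11-high cells the single libraries pointed in opposite directions, at -1.87 and 0.35 on the log2 scale, and the fit gave -0.85 ± 0.52 (edgeR, adjusted p = 0.44). The UMIs came from few cells, with 1.73% and 2.21% of Myh11-low cells holding any and up to 11 and 18 UMIs in a single cell.

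**Figure D1:**
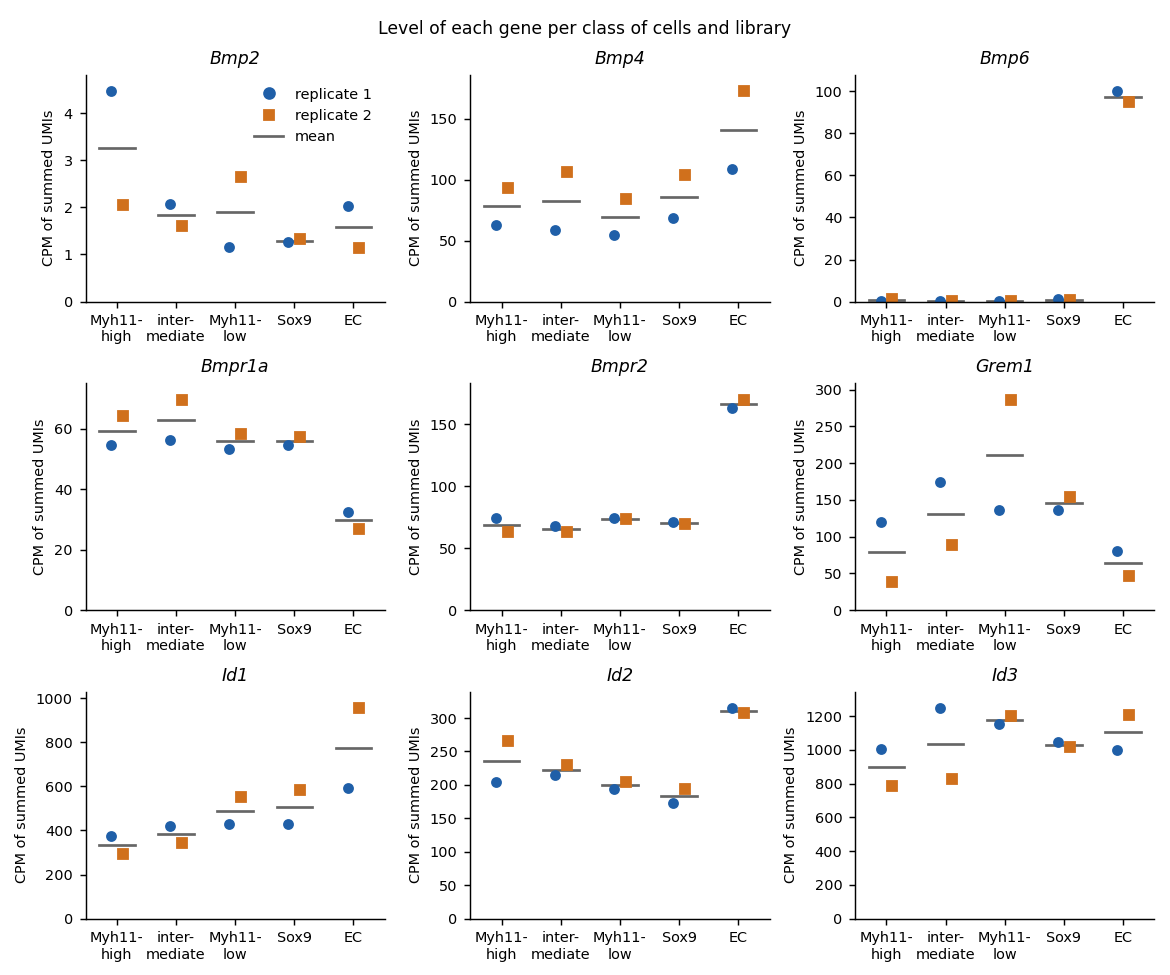
CPM of summed UMIs (y axis, linear, from 0) of each gene in 5 classes of cells (x axis), with circles for replicate 1, squares for replicate 2 and lines for their mean. *Bmp6* and *Bmpr2* stand high and *Bmpr1a* low in ECs in both libraries, while the 2 values of *Grem1* in Myh11-low cells, 136 and 286 CPM, lie far apart.

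The receptors separated ECs from the 3 other classes in opposite directions. *Bmpr2*, the type II receptor, had 163 and 170 CPM in ECs. It had 74.7 and 63.0 CPM in Myh11-high cells, 74.1 and 73.3 CPM in Myh11-low cells, and 71.3 and 69.2 CPM in Sox9 cells. The difference of ECs was 1.10 ± 0.10 (SE) on the log2 scale, or 2.15-fold (edgeR, adjusted p = 0.00053), with 1.15 and 1.31 in the single libraries. *Bmpr1a*, a type I receptor, had 32.6 and 26.8 CPM in ECs against values between 53.4 and 64.2 CPM in the 3 other classes. It was 2.09-fold lower in ECs, with a log2 fold change of -1.06 ± 0.13 (SE, edgeR, adjusted p = 0.0019), and -0.73 and -1.16 in the single libraries. The EC and other values of both receptors did not overlap. Shares of cells moved the same way after thinning to 3000 UMIs: *Bmpr2* was found in 40.7% and 41.2% of ECs against 19.7% and 19.5% of Myh11-low cells, and *Bmpr1a* in 7.40% and 7.21% against 14.9% and 16.0%.

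Among Myh11-high, Myh11-low and Sox9 cells, both receptors stayed within a narrow range. The log2 fold change between Myh11-low and Myh11-high cells was 0.03 ± 0.12 for *Bmpr2* (edgeR, adjusted p = 0.94) and -0.16 ± 0.13 for *Bmpr1a* (adjusted p = 0.59). Between Sox9 and Myh11-low cells it was -0.08 ± 0.12 and 0.00 ± 0.13 (edgeR, adjusted p = 1 for both). Within the Myh11-low class, cells with a *Bmpr1a* UMI held a *Bmpr2* UMI in 79.0% and 68.7% of cases, and cells without one in 63.9% and 52.9%. The cells with a *Bmpr1a* UMI were also deeper (medians of 23289 against 17169 UMIs and 16337 against 12480.5 UMIs), and the rank correlation of the levels of the 2 receptors per UMI of the cell was 0.09 and 0.11 over 3241 and 3808 cells, which share a library and a culture.

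*Grem1*, which encodes the BMP antagonist gremlin 1, differed widely between the 2 libraries within a class. It had 120 and 37.6 CPM in Myh11-high cells, 136 and 286 CPM in Myh11-low cells, 136 and 154 CPM in Sox9 cells, and 81.0 and 46.8 CPM in ECs. Myh11-low cells of replicate 2 stood highest, while in replicate 1 the Myh11-high, Myh11-low and Sox9 cells were close to each other. From Myh11-high to Myh11-low cells the log2 fold change was 1.33 ± 0.59 (SE) and did not pass (edgeR, adjusted p = 0.29). It was 0.18 in replicate 1 alone and 2.92 in replicate 2 alone. In the Myh11-high cells of replicate 1, a single cell held 157 of the 1428 *Grem1* UMIs. *Lum*, a proteoglycan gene of fibroblasts and modulated VSMCs, had 57.4 and 18.7 CPM in Myh11-high cells and 90.5 and 189 CPM in Myh11-low cells. The 4 markers of adventitial fibroblasts summed to 130 and 31.1 CPM in Myh11-high cells and to 183 and 109 CPM in Myh11-low cells, and 0 of the 4 were at 0 in either class. Their part in the *Grem1* difference was not tested.

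Along finer bins of *Myh11* UMIs, over all cells except ECs, the 2 libraries followed different courses. In replicate 1 *Grem1* was at 130 CPM in cells with no *Myh11* UMI, between 177 and 185 CPM in the bins from 1 to 9 UMIs, 101 CPM at 10 to 19 UMIs and 59.6 CPM at 20 or more. In replicate 2 it was at 251.5 CPM with no *Myh11* UMI, then at 198, 84.5, 47.7 and 38.3 CPM, and at 30.3 CPM at 20 or more. *Id1* was at 431 and 585 CPM in cells with no *Myh11* UMI and at 329 and 271 CPM in the highest bin, and *Id3* was at 1120 and 1157 CPM and at 868 and 797 CPM. *Id2* was at 190.0 and 199 CPM with no *Myh11* UMI and at 185 and 274 CPM in the highest bin. The libraries thus differed in direction between these end bins. At 10 to 19 UMIs *Id2* was at 226 and 246 CPM, above its value with no *Myh11* UMI in each library. The bins hold different numbers of cells, with 143 and 120 cells in the highest one. They are a description with no test, and the bins with most *Myh11* UMIs also held the deepest cells (medians of 31002 and 23509 UMIs).

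**Figure D2:**
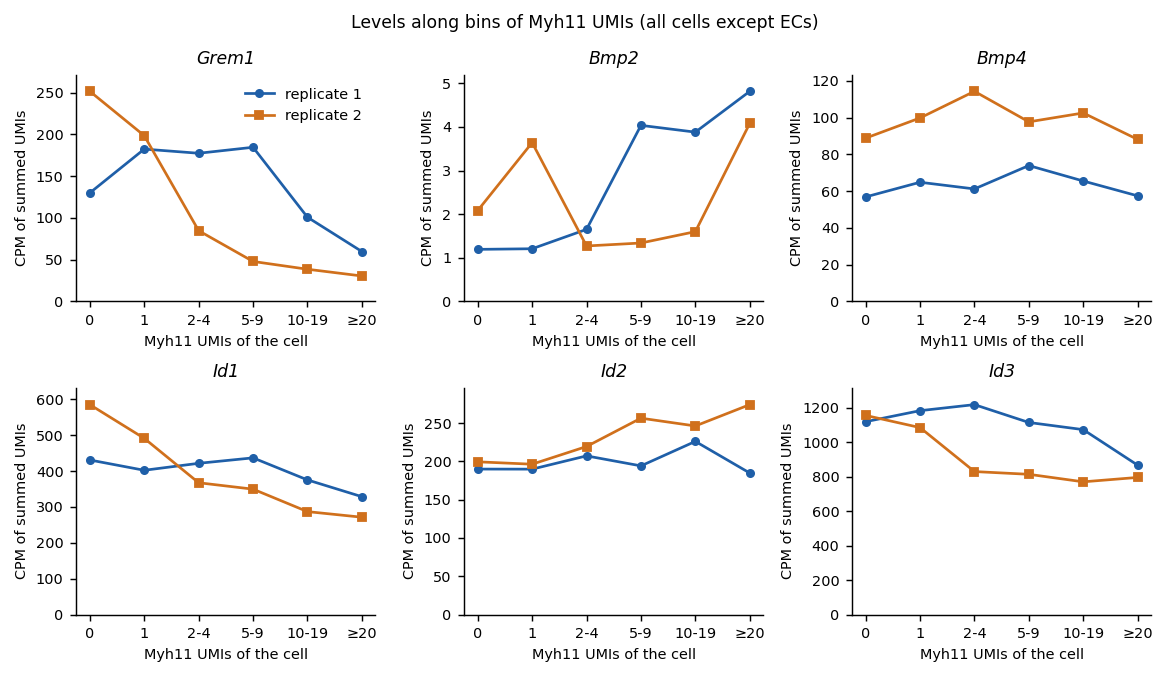
CPM of summed UMIs (y axis, linear, from 0) of 6 genes in bins of the *Myh11* UMI count of the cell (x axis), with circles for replicate 1 and squares for replicate 2. *Grem1* ends at 59.6 and 30.3 CPM in the highest bin of the 2 libraries, and *Bmp4* shows no common slope.

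Most *Grem1* UMIs of Myh11-low cells lay in a minority of these cells. The tenth of Myh11-low cells with the most *Grem1* UMIs (325 and 381 cells) held 67.9% and 61.9% of them, and single cells reached 100 and 225 UMIs. For *Id3*, found in nearly all cells, the same share was 24.5% and 24.9%, and for *Bmp4* it was 52.9% and 52.3%. A *Grem1* UMI was found in 39.4% and 54.0% of Myh11-low cells, 42.8% and 48.1% of Sox9 cells, and 27.8% and 15.2% of Myh11-high cells, where free RNA alone would give 8.02% and 11.6%.

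In ECs the share of cells with a *Grem1* UMI, though not its level in CPM, was close to that from free RNA alone. The amount of free RNA was not estimated in ECs themselves. The ECs held 159 and 82 *Grem1* UMIs, of which a single cell held 81 and 26. The share of ECs with a UMI was 9.80% in replicate 1 (4.80 to 17.3%) and 8.51% in replicate 2 (4.48 to 14.4%), against 5.61% and 7.01% from free RNA alone. These 10 and 12 ECs were deep cells, with medians of 44732.5 and 23365.5 UMIs against 13735.5 and 9903 UMIs in the other ECs. They had lower *Pecam1* (193 and 365 CPM against 809 and 744 CPM) and higher *Col1a1* (1008 and 605 CPM against 286 and 68.7 CPM), and 6 and 5 of them were cycling. *Bmp6* was at 24.9 and 54.1 CPM in them and at 124 and 103 CPM in the other ECs. The difference of ECs from the 3 other classes in *Grem1* was -1.19 ± 0.53 (SE, log2) and did not pass (edgeR, adjusted p = 0.16), with -0.69 and -1.34 in the single libraries. It passed when only ECs with at most 1 *Myh11* UMI were kept (-1.79, adjusted p = 0.049) and when cycling cells were left out of all classes (-2.71, adjusted p = 0.019). In the cycling ECs (20 and 22 cells) *Grem1* was at 179 and 103 CPM, against 28.9 and 27.1 CPM in the other ECs. Whether the ECs with *Grem1* are doublets was not tested.

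**Figure D3:**
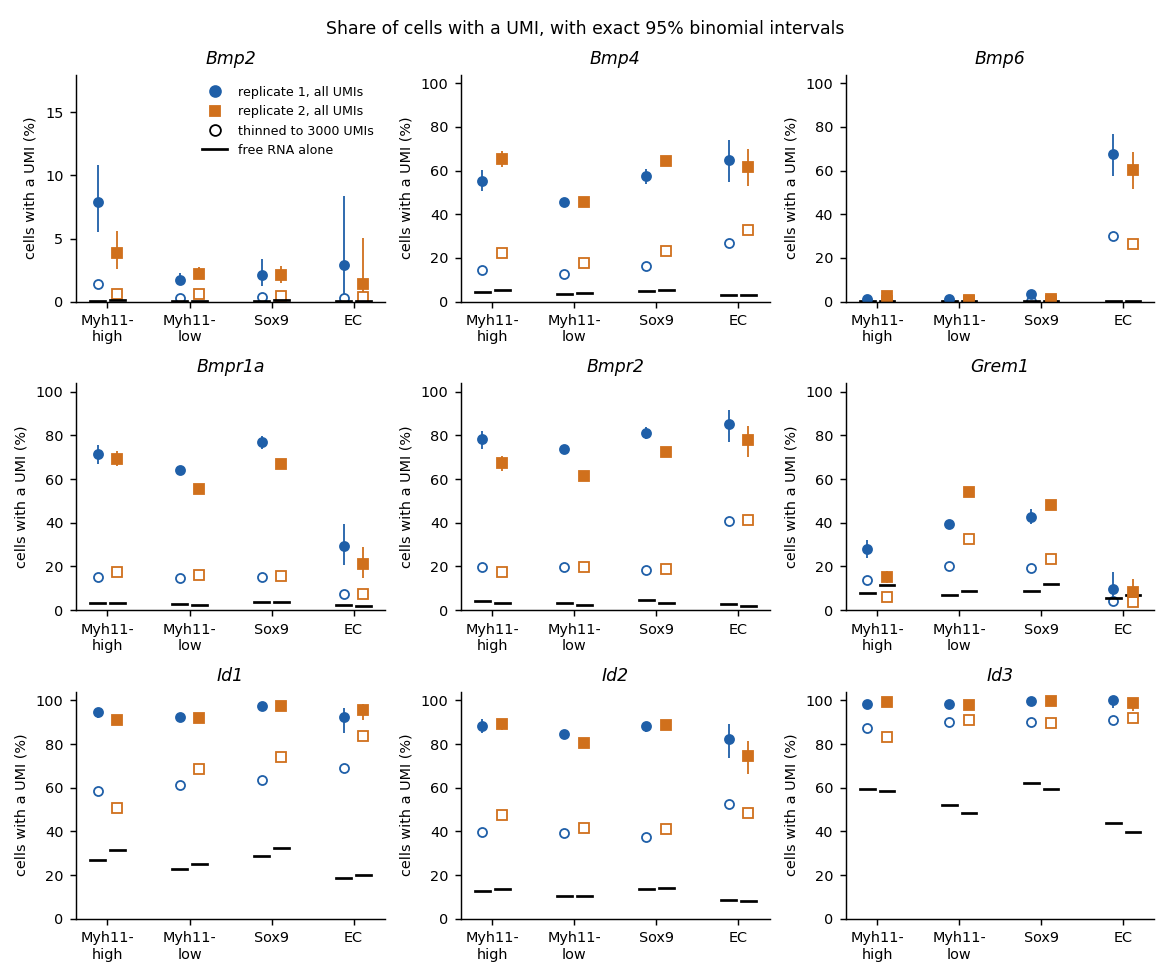
Share of cells with a UMI in percent (y axis, linear) for each gene in 4 classes (x axis), with filled symbols and exact 95% binomial intervals for all UMIs, open symbols after thinning to 3000 UMIs per cell, and short black lines for the share that free RNA alone would give. The *Bmp2* panel has its own scale, and *Grem1* in ECs lies close to the black lines.

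Of the target genes, *Id2* passed in ECs. It had 314 and 308 CPM in ECs, 204 and 266 CPM in Myh11-high cells, 195 and 205 CPM in Myh11-low cells, and 174 and 194 CPM in Sox9 cells. ECs lay above all other values, at a log2 fold change of 0.48 ± 0.11 (SE) or 1.39-fold (edgeR, adjusted p = 0.024), with 0.72 in replicate 1 alone and 0.49 in replicate 2 alone. Fewer ECs than other cells held an *Id2* UMI (82.4% and 74.5%, against 84.5% and 80.4% of Myh11-low cells), but after thinning to 3000 UMIs the order was the opposite, with 52.7% and 48.6% against 39.3% and 41.4%. From Myh11-high to Myh11-low cells the log2 fold change of *Id2* was -0.31 ± 0.14 and did not pass (edgeR, adjusted p = 0.30). The single libraries gave -0.07 and -0.38.

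*Id1* had 591 and 954 CPM in ECs, 429 and 584 CPM in Sox9 cells, 427 and 550 CPM in Myh11-low cells, and 375 and 292 CPM in Myh11-high cells. In each library the ECs were highest and the Myh11-high cells lowest, and the values of ECs overlapped with no other class. The difference of ECs was 0.70 ± 0.21 (SE, log2) with an adjusted p of 0.056 (edgeR), and single libraries gave 0.53 and 1.07. With the replicate as a block it passed (0.68, adjusted p = 0.023), and with a robust estimate of the spread in that fit, an alternative added after seeing the data, it had an adjusted p of 0.057. From Myh11-high to Myh11-low cells the log2 fold change of *Id1* was 0.47 ± 0.27 and did not pass (edgeR, adjusted p = 0.40), with 0.19 and 0.91 in the single libraries.

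*Id3* was at 1002 and 1209 CPM in ECs, 1153 and 1200 CPM in Myh11-low cells, 1046 and 1016 CPM in Sox9 cells, and 1007 and 788 CPM in Myh11-high cells. ECs overlapped with Myh11-low cells, and the difference of ECs from the 3 other classes was -0.02 ± 0.13 (SE, log2, edgeR, adjusted p = 0.92). From Myh11-high to Myh11-low cells the log2 fold change of *Id3* was 0.32 ± 0.16 and did not pass (edgeR, adjusted p = 0.34). The single libraries gave 0.20 and 0.61, and the values of these classes did not overlap. At least 96.2% of the cells of any class, intermediate cells included, held an *Id3* UMI. Free RNA alone would give between 39.7% and 62.0% of the cells of the 4 classes an *Id3* UMI, so that its share of cells carries little information.

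In ECs, 3 of the 9 genes rose (*Bmp6*, *Bmpr2*, *Id2*) and 1 fell (*Bmpr1a*), where 13.2% of the 13668 genes tested rose and 11.2% fell (edgeR). With the replicate as a block, 5 rose (*Bmp4* and *Id1* in addition) and 1 fell, against 18.1% and 18.5% of all genes. Between Myh11-low and Myh11-high cells, in the fit without the block, 0 of the 9 genes passed, and 0 had an unadjusted p under 0.05, where 3.64% of all genes passed (131 higher and 366 lower) and 2629 had an unadjusted p under 0.05. DESeq2 also called 0 of the 9. With the block, *Bmp4* was 1.18-fold lower in Myh11-low cells (-0.24 ± 0.07, adjusted p = 0.041), against 12.7% of all genes lower. Its unadjusted p in that edgeR fit was 0.0089. *Id2* (0.020), *Grem1* (0.043) and *Id3* (0.046) also had an unadjusted p under 0.05 there but did not pass. Of the 13668 genes, 5224 had an unadjusted p under 0.05 with the block.

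**Figure D4:**
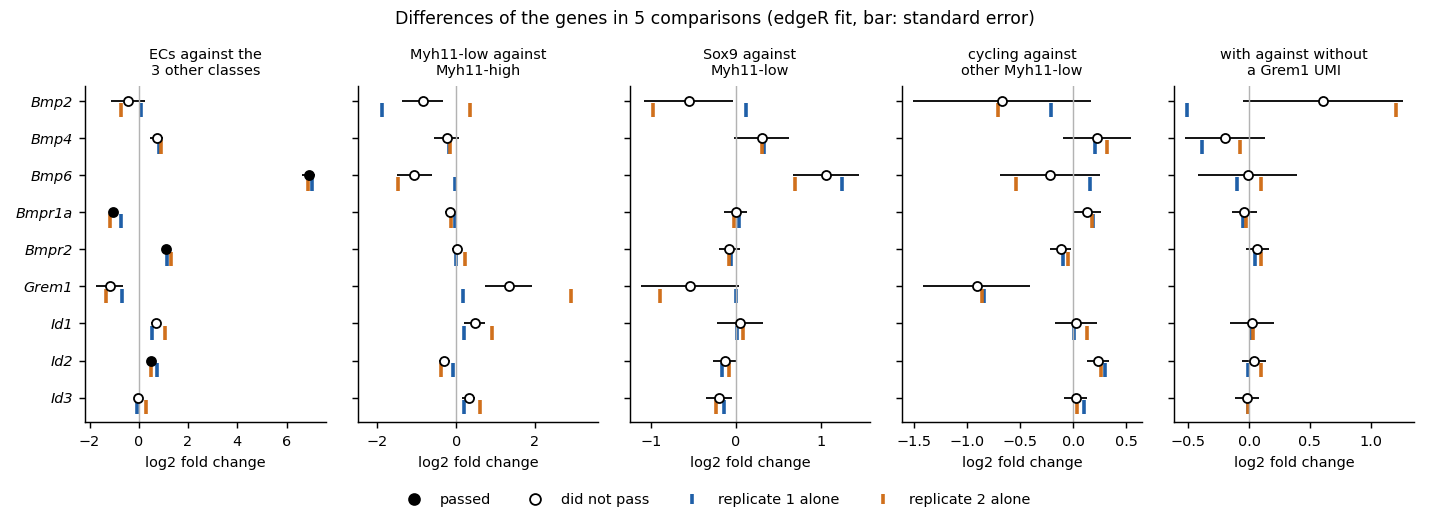
Log2 fold change (x axis, own scale in each panel) of each gene in 5 comparisons, with circles and bars for the edgeR estimate and its standard error, filled where the adjusted p was under 0.05, and ticks for each library alone. Filled circles stand only in the EC panel, for *Bmp6*, *Bmpr1a*, *Bmpr2* and *Id2*, and the 2 ticks of *Grem1* between Myh11-low and Myh11-high cells lie at 0.18 and 2.92.

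Sox9 cells and Myh11-low cells were compared to ask whether BMP genes differ in cells with this chondrocyte factor. None of the 9 genes passed, and neither did any other gene: 0 of 13668 genes, or 0%, passed in edgeR, while 167 had an unadjusted p under 0.05. That fit did not call *Sox9* itself, at 143 and 231 CPM in Sox9 cells and 8.05 and 14.1 CPM in Myh11-low cells. Of the Myh11-low cells, 18.5% and 22.6% held 1 *Sox9* UMI. The lack of calls therefore cannot show that the 9 genes are alike in the 2 classes. DESeq2 called 2 genes, *Sox9* and *Myh11*, both used to form the classes, and the block called only *Sox9*. *Bmp6* had the largest log2 fold change of the 9 genes (1.06 ± 0.39, unadjusted p = 0.032, adjusted p = 1) at 31 and 30 UMIs in Sox9 cells. The *Id* genes differed by 0.04 ± 0.27, -0.13 ± 0.14 and -0.20 ± 0.16 for *Id1*, *Id2* and *Id3*. In Sox9 cells, 86 of 799 and 305 of 1859 cells had more than 1 *Myh11* UMI, and 0 of the 9 genes passed when these were left out.

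Whether the targets were lower beside the antagonist was asked by splitting Myh11-low cells into those with and without a *Grem1* UMI, matched on depth (1277 cells each in replicate 1 and 1646 each in replicate 2). *Id1* had 434 and 558 CPM in cells with *Grem1* and 429 and 545 CPM in those without. *Id2* had 196 and 214 CPM against 197 and 200 CPM, and *Id3* had 1147 and 1201 CPM against 1155 and 1212 CPM. The log2 fold changes were 0.02 ± 0.18, 0.04 ± 0.10 and -0.01 ± 0.10 (edgeR, adjusted p = 1 for each). Of the 13378 genes tested without *Grem1*, 0%, or 0 genes, passed, and 185 had an unadjusted p under 0.05. DESeq2 called 2 genes, *Dlk1* and *Fibin*, named here after their values were seen. The block called 297, or 2.22%, and 0 of the 8 other genes were among the calls of either. Of the 50 pathway genes tested, these 8 included, 2 were higher with the block in the cells with *Grem1*, *Id4* (0.97, adjusted p = 0.024) and *Fst*, the antagonist follistatin (0.34, adjusted p = 0.045). Without the block they had 0.95 and 0.30 (edgeR, adjusted p = 1 for both). With the block the standard errors of the 3 *Id* genes were 0.03 to 0.04, around values of 0.02, 0.04 and -0.01. The block fit of this split had 1 residual degree of freedom. Its standard errors and calls, those of *Id4* and *Fst* included, rest largely on a spread estimated across genes. A secreted protein can act on any cell of the dish, and the split follows mRNA in the cell itself.

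Cycling cells, with at least 2 UMIs in each of 2 or more of *Mki67*, *Top2a*, *Cenpf*, *Ccnb1* and *Birc5*, were 34.5% and 26.3% of Myh11-low cells. At matched depth, *Grem1* had 86.9 and 180 CPM in cycling cells and 156 and 328 CPM in the others, and *Id2* had 217 and 223 CPM against 176 and 186 CPM. *Bmp4* had 61.8 and 103 CPM against 53.6 and 82.2 CPM. In each library *Grem1* was lower, and *Id2* and *Bmp4* higher, in the cycling Myh11-low cells. For *Bmp4* this order did not hold in each library of the other classes, there without matching. It had 67.8 and 110 CPM in cycling Sox9 cells against 69.7 and 99.9 CPM in the others. In Myh11-high cells it had 64.4 and 87.8 CPM against 61.6 and 98.3 CPM. Without the block 0 of the 9 genes passed, against 4.7% of 13125 genes (edgeR, *Grem1* -0.91 ± 0.50, adjusted p = 0.47). With the block *Grem1* (-0.90 ± 0.05, adjusted p = 1.9e-62) and *Bmp2* (-0.61 ± 0.26, adjusted p = 0.042) were lower, and *Id2* (0.23 ± 0.05, adjusted p = 3.7e-05) and *Bmp4* (0.22 ± 0.06, adjusted p = 0.00085) were higher, against 22.7% of all genes lower and 21.9% higher. That fit had 1 residual degree of freedom and took the spread as common to all genes, and its p-values rest on that. *Id1* and *Id3* differed by 0.02 each. *Bmp2* was near the limit of detection, with 0.902 and 2.50 CPM in cycling cells against 1.05 and 4.16 CPM in the matched others. Without matching it had 0.884 and 2.50 CPM against 1.36 and 2.72 CPM, so that its gap in replicate 2 differed with the cells compared. The matched others of replicate 2 were deeper than all others (medians of 17837 and 13472 UMIs), and only 1 draw was made.

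Within Myh11-low cells the *Id* genes varied together. The rank correlation of levels per UMI of the cell was 0.33 in replicate 1 and 0.30 in replicate 2 for *Id1* and *Id3*, 0.24 and 0.22 for *Id2* and *Id3*, and 0.18 and 0.20 for *Id1* and *Id2* (3241 and 3808 cells). All other pairs of the 9 genes were at or below 0.11 in size in both libraries. The *Id* genes were each found in 80.4% or more of these cells. *Bmp2* and *Bmp6* were found in at most 2.21%, and *Bmp4*, *Grem1* and the receptors in 39.4% to 73.6%. Genes seen in fewer cells tie at 0 in many of them, so that their correlations cannot be set against those of the *Id* genes. These cells share a library, a culture and a depth profile, and the values are a description.

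The pathway was read more widely from 7 lists, which include the genes described above. The lists held 63 genes, of which 53 were tested. In ECs 15 rose and 5 fell, where 13.2% of all genes rose and 11.2% fell. The 15 include *Bmp6*, *Bmpr2* and *Id2*, and the 5 include *Bmpr1a*, so that these calls are counted again here. The median log2 fold change of the 53 genes was 0.10, against -0.05 over all genes. With the replicate as a block 18 of the 53 rose and 14 fell, against 18.1% and 18.5% of all genes, so that most of the calls that the block added were lower ones. Of the 10 receptors and co-receptors, 4 rose and 2 fell. *Eng*, the co-receptor endoglin, had 634 and 549 CPM in ECs and at most 71.5 CPM elsewhere (3.20 ± 0.18, adjusted p = 6e-05), and *Acvrl1*, the type I receptor ALK1, had 119 and 98.8 CPM and at most 27.5 CPM elsewhere (2.11 ± 0.11, adjusted p = 6e-05, both edgeR). *Acvr1* rose by 0.63 on the log2 scale and *Rgma*, a BMP co-receptor, fell by 1.51. Of the 7 ligands tested, *Bmp6* rose and *Gdf6* fell by 1.47. With the block 2 ligands were higher (*Bmp4* in addition) and 4 lower, with *Bmp3* (-2.15, adjusted p = 0.044), *Bmp8a* (-2.80, adjusted p = 0.033) and *Gdf10* (-1.15, adjusted p = 0.047) added in edgeR. Of the receptors the block added *Bmpr1b* (-2.16, adjusted p = 0.027).

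Of the 12 secreted antagonists and modulators tested, 2 were lower in ECs and 1 was higher. *Fstl3* and *Twsg1* fell by 1.84 and 0.66 on the log2 scale, and *Crim1*, a membrane protein that binds BMPs, rose by 0.91. Of the 9 Smads and intracellular inhibitors, *Smad6*, *Smurf1* and *Smurf2*, all negative regulators of the pathway, rose by 1.30, 0.94 and 0.78. All 3 E proteins rose (*Tcf4* by 2.14, *Tcf3* by 0.70 and *Tcf12* by 0.42), and so did *Hey1* and *Msx1* among 8 other BMP-responsive genes (4.43 and 1.98). Of the 4 *Id* genes, *Id2* passed, and *Id4* had a log2 fold change of -1.63 ± 0.59 (edgeR, adjusted p = 0.091), which passed with the block (-1.68, adjusted p = 0.0046). The block also added *Smad1* as higher, and *Fstl1*, *Nbl1*, *Atoh8* and *Runx2* as lower.

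**Figure D5:**
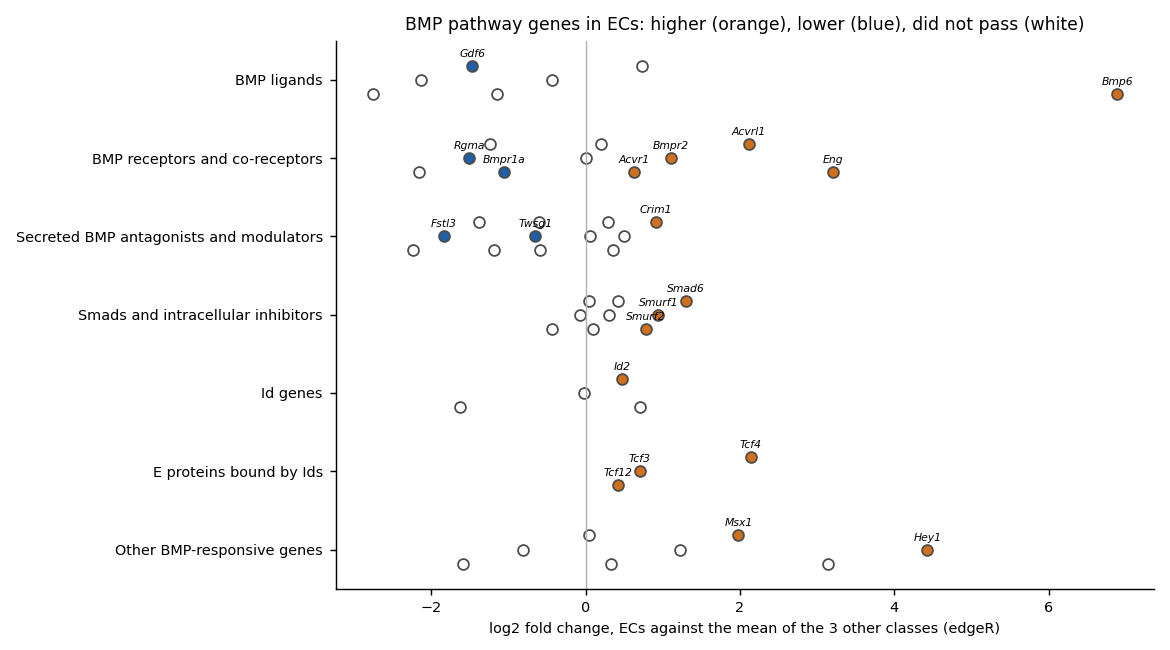
Log2 fold change of the 53 tested BMP pathway genes between ECs and the mean of the 3 other classes (x axis), in 7 lists (y axis), with names and color for the 20 genes that passed (15 higher, 5 lower) and open circles for the rest. *Bmp6* lies farthest to the right at 6.89, and 2 of the 3 antagonists and modulators that passed lie to the left of 0.

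Between Myh11-low and Myh11-high cells, 3 of the 53 genes passed, where 3.64% of all genes did. The ligand gene *Gdf10* had 20.6 and 21.7 CPM in Myh11-low cells and 6.14 and 3.77 CPM in Myh11-high cells (2.02 ± 0.39, edgeR, adjusted p = 0.045). *Tcf4* had 144 and 199 CPM against 64.4 and 59.5 CPM (1.39 ± 0.21, edgeR, adjusted p = 0.023). *Fstl3*, a follistatin-like antagonist, had 18.1 and 17.0 CPM against 62.0 and 72.9 CPM (-2.01 ± 0.26, edgeR, adjusted p = 0.017). With the block, 9 of the 53 were higher and 10 lower, against 11.5% and 12.7% of all genes. The genes it added were *Bmp8a*, *Acvrl1*, *Eng*, *Nbl1*, *Smad6*, *Tcf3* and *Runx2* as higher, and *Bmp3*, *Bmp4*, *Bmpr1b*, *Acvr2b*, *Sost*, *Crim1*, *Bambi*, *Msx2* and *Hamp* as lower. Between Sox9 and Myh11-low cells 0 of the 53 passed, and 0 with the block.

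The genes with the pattern most like each member were sought over the 8 sums (4 classes in 2 libraries) by Pearson correlation of log2(CPM + 1), as a description. They were *Mtcl1*, *Mtmr11* and *Prex1* for *Bmp6* (0.999 to 0.997), *Ldb2*, *Nova2* and *Kank3* for *Bmpr2* (0.997 to 0.996), and *Stk39*, *Wwc1* and *Pradc1* for *Bmpr1a* (0.991 each). For *Bmp4* they were *Sephs2*, *Chordc1* and *Zfp24* (0.990 to 0.986), and for *Bmp2* *Atp6v0a1*, *Atp1b2* and *Rrad* (0.837 to 0.831). *Grem1* was most like *Nucb1*, *Clec11a* and *Gna13* (0.981 to 0.954). The *Id* genes had *Galc*, *Raet1e* and *Usp19* for *Id1* (0.993 to 0.983), *Zdhhc12*, *Rhoc* and *Tprgl* for *Id2* (0.985 to 0.981), and *Agmo*, *Kidins220* and *Ppfia1* for *Id3* (0.969 to 0.958). The 8 sums share libraries, and the values were not computed without ECs. *Clec11a* moved between the libraries much as *Grem1* did, with 8.42 and 3.77 CPM in Myh11-high cells and 12.5 and 17.8 CPM in Myh11-low cells. Among the 9 genes, *Bmp6* and *Bmpr2* correlated at 0.98 over the sums and *Bmpr1a* and *Bmpr2* at -0.99.

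All 9 genes are protein-coding in the GENCODE annotation M21 of GRCm38. *Bmp6* spans 38345107 to 38500302 on chromosome 13 (plus strand), and *Grem1* 113746164 to 113758646 on chromosome 2 (minus strand). *Bmpr1a* (34410734 to 34503341) and *Bmp4* (46383520 to 46390669) both lie on the minus strand of chromosome 14, and *Bmpr2* spans 59763400 to 59879014 on chromosome 1 (plus strand). *Id1* lies at 152736251 to 152737410 and *Bmp2* at 133552159 to 133562885 on the plus strand of chromosome 2, *Id2* at 25093799 to 25097140 on chromosome 12 (minus strand), and *Id3* at 136143497 to 136145755 on chromosome 4 (plus strand).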

How the data were processed

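The authors deposited UMI counts per gene and barcode, whole numbers without normalization, still with empty droplets (totals of 127949633 and 132561822 UMIs). Per the submitters' processing notes the reads were aligned with Cell Ranger 3.0.2 to mm10, while the header of the replicate 2 matrix names 3.1.0. Of the 31053 gene identifiers, 30934 matched GENCODE M21. The genes, lists and tests were chosen with earlier results of these data known.

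UMIs were summed per library and class and tested in edgeR 4.0.16 (TMM, filterByExpr, quasi-likelihood F test, Benjamini-Hochberg over all genes tested, threshold 0.05), with 8 sums in 1 fit for the 4 classes and 4 sums for each split of Myh11-low cells. DESeq2 1.42.0 was an alternative. Each standard error is the size of the estimate divided by the root of its F statistic. Values of single libraries are differences of log2 CPM with a prior count of 2 and without TMM factors. They are therefore not on the scale of the fits, and an estimate can lie outside the range of its 2 single libraries. All 9 genes were named, and other pathway genes where they passed in the comparisons of the 4 classes, with or without the block, except 1 list gene that is not reported here. Sums of a library come from 1 culture, so that replicate numbers pair them, and their deviations from the class means correlated at 0.292 to 0.824. The block is the library number. Counts of 13668 genes were simulated without a library effect, with changes placed in some of the genes above a minimum mean count. The fit for ECs recovered 33.0% of the 2-fold and 78.0% of the 4-fold changes placed, and the fit for Myh11-low against Myh11-high 21.1% and 84.6%. The fit for Sox9 cells against Myh11-low cells recovered 22.9% and 87.9%, yet the fit of the real sums did not call *Sox9* itself. The simulated rates therefore need not hold for the real sums, and they do not cover genes of low count such as *Bmp2*. Doublets were kept and not called. Thinned shares are hypergeometric expectations, and free RNA made up an estimated 3.16% and 3.81% of the UMIs of cells other than ECs. This amount was set from the *Pecam1*, *Cdh5* and *Cldn5* UMIs of those cells. The same genes are part of the rule that separates ECs, and the amount was applied to every class, ECs included.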

Additional observations from a re-analysis of the deposited data

How the results depend on the processing

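The 4 calls in ECs (*Bmp6*, *Bmpr1a*, *Bmpr2* and *Id2*) kept their direction and passed in every alternative with a test, *Id2* at adjusted p up to 0.033. Counts of genes past the threshold moved more. For Myh11-low against Myh11-high (497) they were 1355 in DESeq2, 960 with classes per 10000 UMIs, 913 without a filter, and 3307 and 3259 with the replicate block and its robust form. For Sox9 cells (0) they were 2 in DESeq2 and 1 without a filter, with the replicate block and with its robust form. For ECs (3332) they were 2127 with each cell weighed equally, and 5001 and 5002 with the replicate block and its robust form. For the *Grem1* split (0) they were 2 in DESeq2, and 297 and 448 with the replicate block and its robust form, and for cycling cells (617) 5852 and 5899. The cause was not tested. The robust form was added after seeing the data. Among alternatives with a test, the sign of 3 values near 0 turned. These were *Id3* in ECs with each cell weighed equally (0.0046) and, without matching, *Bmp6* (0.0232) and *Id3* (-0.0675) in cycling cells. Single libraries, which have no test, turned the sign of further values, not all near 0. *Bmp2* between Myh11-low and Myh11-high cells was at -0.85 in the fit and 0.35 in replicate 2 alone. In the *Grem1* split it was at 0.61 in the fit and -0.51 in replicate 1 alone. *Id1* in ECs also passed in DESeq2 (adjusted p = 0.020), without a filter (0.029), with each cell weighed equally (0.046) and without the 5% of cells with the most UMIs (0.047). The block changed no other call of the 9 genes than those given above. All 36 shares of cells were lower after thinning to 3000 UMIs, which follows from thinning, as it only removes UMIs. There were 2 libraries, with 102 and 141 ECs at the lowest depth. A 2-fold difference of ECs, simulated without a library effect, was found for 33.0% of the genes that were given one. This rate need not hold for the real sums.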
